A study of Mus musculus with 9 samples.

Results

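The 40 genes described here are the matrix metalloproteases (MMPs, 18 genes), the ADAMTS proteases (a disintegrin and metalloprotease with thrombospondin motifs, 18 genes) and the tissue inhibitors of metalloproteases (TIMPs, 4 genes), out of 51912 genes in the deposited count table. They were chosen by name, as the MMP, ADAMTS and TIMP symbols matched to Ensembl identifiers, with earlier results of these data known; no measured value enters the rule. MMPs and ADAMTS are zinc-dependent enzymes that cut proteins of the extracellular matrix, and many of them are secreted as inactive precursors. MMPs cleave collagens, gelatin, laminins and proteoglycan core proteins, and most are held in check by TIMPs, which bind the active site. ADAMTS enzymes fall into proteoglycanases, which cut aggrecan and versican, procollagen N-proteinases, which trim collagen precursors before fibrils form, and smaller branches that act on fibrillin microfibrils or other matrix proteins. Fibroblasts are a main source of these enzymes and inhibitors in connective tissue and in tumour stroma. Beta-catenin, the protein named in the genotype label, acts in the nucleus with TCF/LEF proteins on transcription, and MMP genes are among the targets described for it.

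RNA came from cultured C57BL/6 mouse fibroblasts kept in DMEM with 10% fetal bovine serum, with 3 libraries in each of 3 groups. The groups were cancer-associated fibroblasts whose genotype is labelled "beta-catenin -/-" (here "labelled bcatKO CAF"), cancer-associated fibroblasts labelled wild type (CAF) and normal fibroblasts labelled wild type (NF). The sources used here do not give how the cells were obtained, from which tumour or tissue, how beta-catenin was removed, or the age and sex of the animals. The labels do not tell whether the 3 libraries of a group are separate cultures or animals. Each p-value therefore sets a difference against the spread among these libraries alone, and that spread may be technical.

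Libraries held 15433810 to 21893574 counts, and 14314 genes passed the filter on low counts and were tested. Ctnnb1, which encodes beta-catenin, was at 668, 637 and 627 CPM (counts relative to the TMM-scaled total of a library) in the labelled bcatKO CAF libraries, 855, 882 and 858 CPM in CAF and 713, 799 and 669 CPM in NF. All 3 labelled bcatKO CAF libraries were below all 3 CAF libraries, with a log2 fold change of -0.43 ± 0.14 (SE; edgeR quasi-likelihood test, adjusted p = 0.0339) and an exact two-sided permutation p of 0.1, the smallest that 3 against 3 allows. The edgeR call ended on leaving out any 1 of the 6 libraries (adjusted p = 0.0665 to 0.115), without a filter (adjusted p = 0.160) and with total counts as the scaling (adjusted p = 0.152). Exons that a deletion leaves in place still give reads, and the label cannot be checked from this level. Across tested genes, log2 CPM correlated at r = 0.778 to 0.795 between labelled bcatKO CAF and CAF libraries and at 0.922 to 0.989 between labelled bcatKO CAF and NF libraries. NF replicate 1 stood closer to the labelled bcatKO CAF libraries (r = 0.984, 0.985 and 0.989) than to NF replicates 2 and 3 (r = 0.951 and 0.935), and results that rest on it are given with and without it. Of 11 fibroblast markers, 8 (72.7%) were lower and 0 higher in labelled bcatKO CAF than in CAF, against 22.7% and 21.5% of all tested genes. In CAF against NF, 8 (72.7%) were higher and 0 lower, against 20% and 19.9% of all tested genes. Col1a1, the main collagen gene, averaged 293 CPM in labelled bcatKO CAF, 19927 CPM in CAF and 149 CPM in NF, and Thy1, a fibroblast surface marker, averaged 0.239, 1960 and 0.389 CPM in the same order of groups. Vim, the mesenchymal filament gene, averaged 5387, 5246 and 4712 CPM. Levels in bulk RNA cannot tell fewer cells of a type from less RNA per cell.

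Of the 40 members, 32 passed the filter and were tested. Mmp7, Mmp24, Mmp25, Timp4, Adamts17, Adamts18, Adamts19 and Adamts20 did not pass. In labelled bcatKO CAF against CAF, 3 members were higher, 14 were lower and 15 did not pass the test at an adjusted p under 0.05. That is 53.1% of the tested members called, against 44.2% of all tested genes called in this comparison. By direction, 9.38% of members were called higher, against 21.5% of all genes, and 43.8% were called lower, against 22.7% of all genes. The median log2 fold change of the tested members was -1.07, against -0.01 over all tested genes. In CAF against NF, 14 members were higher, 4 were lower and 14 did not pass. The called share was 56.2% of members and 39.9% of all genes, with 43.8% of members higher (20% of all genes) and 12.5% lower (19.9% of all genes), and the member median was 0.99, against -0.04 over all genes. Without NF replicate 1 the counts for CAF against NF became 18 higher and 8 lower, with Mmp11, Mmp14 and Mmp19 among those added as higher and Mmp8, Mmp10, Mmp12 and Adamts8 added as lower. The counts over all genes moved too. They were 2866 higher and 2847 lower with all libraries, and 2525 to 3521 higher and 2150 to 3127 lower on leaving out 1 library. Shares are not given for the fit without NF replicate 1, so its member counts are not read against all genes. All 3 libraries of a group lay on the same side of all 3 of the other for 23 of the 32 members in labelled bcatKO CAF against CAF, 5 higher (32.4% of all genes) and 18 lower (33.3% of all genes), where such a gap in either direction was found for 65.7% of all genes. For CAF against NF it was 21 members, 18 higher (24.6% of all genes) and 3 lower (23.6% of all genes), against 48.2% of all genes in either direction. Both comparisons use the same CAF libraries, so their values are not independent of each other. The filter keeps a gene that is present in 1 group alone, and Mmp15, Mmp23, Adamts3, Adamts15 and Adamts16 passed only through CAF, so the counts over tested members describe these 32 genes and not the family as a whole.

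In labelled bcatKO CAF against NF, 0 members and 0% of all genes were called by edgeR, with 4 members and 702 genes at an unadjusted p under 0.05. DESeq2 called 6 genes in this comparison and limma-voom called 0. Mmp19 and Mmp23 were higher in all 3 labelled bcatKO CAF libraries than in all 3 NF libraries (3.23% of all genes) and 0 members were lower in all (3.64% of all genes), where 6.87% of all genes had a gap in either direction. The median log2 fold change of the members was 0.12, against -0.02 over all genes. Without NF replicate 1, 1620 genes were higher and 1039 lower, and 6 members were higher and 2 lower. Shares of the genes tested in that fit are not given, so these member counts are not read against all genes. A p that misses the threshold does not show that these 2 groups were alike, and the change on leaving out a single library shows how far the comparison rests on it.

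**Figure D1:**
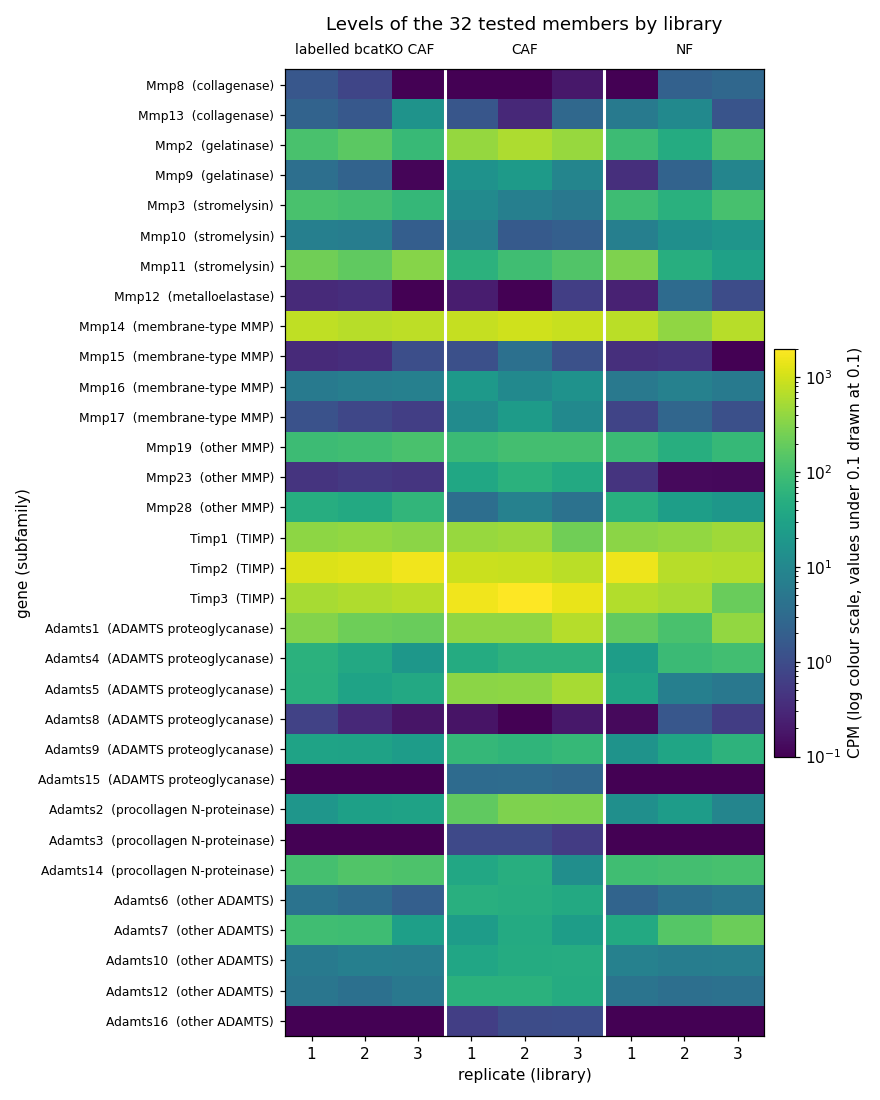
Level of each tested member (rows, with its subfamily) in each library (columns, replicates 1 to 3 of labelled bcatKO CAF, CAF and NF), as CPM on a log colour scale on which values under 0.1 are drawn at 0.1. Mmp2, Mmp23, Adamts2, Adamts5, Adamts6, Adamts10 and Adamts12 are brightest in the 3 CAF columns, whereas Mmp3, Mmp28 and Adamts14 are darkest there.

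Among the stromelysins, which cut proteoglycans, fibronectin and laminin, Mmp3 was the member with the largest increase in labelled bcatKO CAF. Mmp3, stromelysin-1, also activates other MMP precursors and lies on chromosome 9 from 7445822 to 7455975 (GRCm38, plus strand). It was at 116, 102 and 72.3 CPM in labelled bcatKO CAF, 11.5, 7.15 and 5.30 CPM in CAF and 92.2, 53.8 and 113 CPM in NF. All 3 CAF libraries were below the other 6, and the labelled bcatKO CAF and NF libraries overlapped. The log2 fold change was 3.61 ± 0.37 (12.2-fold, adjusted p = 7.88e-05) for labelled bcatKO CAF against CAF and -3.44 ± 0.37 (adjusted p = 9.51e-05) for CAF against NF. Mmp10, a close paralog, so that reads of the pair could be split between them in counting, was at 7.26, 6.75 and 1.91 CPM in labelled bcatKO CAF, 7.39, 1.66 and 2.01 CPM in CAF and 7.22, 14.0 and 17.3 CPM in NF. Its groups overlapped in each comparison and it did not pass the test, with log2 fold changes of 0.53 ± 0.66 (adjusted p = 0.541) for labelled bcatKO CAF against CAF and -1.80 ± 0.67 (adjusted p = 0.0560) for CAF against NF. The comparison of CAF with NF passed without CAF replicate 1 or NF replicate 1, without a filter, and with DESeq2, limma-voom or total counts (adjusted p = 0.00906 to 0.0386).

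Mmp11, stromelysin-3, which is activated inside the cell by furin, was the third stromelysin. It was at 229, 179 and 331 CPM in labelled bcatKO CAF, 58.0, 96.1 and 137 CPM in CAF and 297, 49.8 and 29.0 CPM in NF. All labelled bcatKO CAF libraries were above all CAF libraries, and NF replicate 1 sat among the labelled bcatKO CAF values while NF replicates 2 and 3 were below every CAF library. Labelled bcatKO CAF over CAF gave a log2 fold change of 1.34 ± 0.75 (adjusted p = 0.173), so Mmp11 did not pass in the fit of 9 libraries. It passed with only the 6 samples compared (1.35, adjusted p = 0.00596). For CAF against NF it was -0.37 ± 0.74 (adjusted p = 0.728), and without NF replicate 1 it turned to 1.31 (adjusted p = 0.0245). Summed over the 3 stromelysins, the level per exon length was 578 ± 72.9 TPM (counts per exon length, scaled to a common sum; mean ± SD, n = 3) in labelled bcatKO CAF, 157 ± 43.7 TPM in CAF and 379 ± 203 TPM in NF.

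Mmp3 belongs to a run of MMP genes on chromosome 9, in which the members described here lie in the order Mmp13, Mmp12, Mmp3, Mmp10, Mmp8 and Mmp7. Other MMP genes there, such as Mmp1b, whose exons overlap those of Mmp12, are not among the members and are not counted. Their proximal promoters are shown because the AP-1 site TGANTCA next to the start is the feature long described for stromelysin and collagenase promoters. In the 250 bases before the start, on both strands, the RefSeq table (GRCm38.p6) held this site in 5 of these 6 members, all but Mmp8, against 6.7% of 32851 promoters in the table. In Mmp12 and Mmp7 it lay at 1 of their 2 listed starts. Of the 40 members, 26 had a promoter sequence there. The 200 bases before the start of 3 genes of the run are given 5′ to 3′ on the gene's strand, at chr9:7445622-7445821 for Mmp3, chr9:7502142-7502341 for Mmp10 and chr9:7272314-7272513 for Mmp13, and capitals mark matches of 3 kinds, read on either strand except for the TATA box, namely TGANTCA for AP-1, the ETS core spelled AGGAAG and the TATA box spelled TATAAA:
Mmp3: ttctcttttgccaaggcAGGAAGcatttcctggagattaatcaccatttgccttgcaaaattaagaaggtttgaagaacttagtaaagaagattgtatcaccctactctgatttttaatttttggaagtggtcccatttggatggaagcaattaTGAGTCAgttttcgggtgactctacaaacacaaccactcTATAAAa
Mmp10: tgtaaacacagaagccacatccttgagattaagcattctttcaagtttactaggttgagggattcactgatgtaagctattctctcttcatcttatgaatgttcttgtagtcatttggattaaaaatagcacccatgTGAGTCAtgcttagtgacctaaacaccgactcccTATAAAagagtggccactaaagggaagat
Mmp13: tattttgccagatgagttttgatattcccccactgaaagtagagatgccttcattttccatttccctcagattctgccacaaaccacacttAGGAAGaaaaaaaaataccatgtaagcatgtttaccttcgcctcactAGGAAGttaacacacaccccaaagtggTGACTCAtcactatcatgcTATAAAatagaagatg
The AP-1 match began at -46 in Mmp3, -63 in Mmp10 and -35 in Mmp13, counting the base before the listed start as -1. The TATA box match began at -7, -29 and -16 in the same order. Bases after the start were found in a GENCODE transcript of the gene for 22 of 29 member promoters. Listed starts, and positions counted from them, may therefore be shifted. The pattern AGGAAG was found in 29.5% of all promoters and TATAAA, searched on the gene's strand alone, in 7.6%. The 3 genes carry similar letters near the start. In the main edgeR fit, Mmp3 passed in both comparisons with CAF, and Mmp10 and Mmp13 passed in neither. Under other settings Mmp10 passed for CAF against NF, as given above. Mmp13 passed for labelled bcatKO CAF against CAF with edgeR without a filter (adjusted p = 0.0407). A match is a description of letters and was not tied to binding of any factor here.

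The collagenases, which make the first cut in fibrillar collagen, were low. Mmp13, collagenase-3, was at 2.38, 1.51 and 16.1 CPM in labelled bcatKO CAF, 1.40, 0.311 and 2.82 CPM in CAF and 5.70, 11.0 and 1.29 CPM in NF. Its groups overlapped, with a log2 fold change of 2.13 ± 1.08 (adjusted p = 0.137) against CAF. Mmp8, the neutrophil collagenase, had 23, 15 and 0 counts in labelled bcatKO CAF, 1, 0 and 4 counts in CAF and 0, 51 and 44 counts in NF. It too overlapped between groups and did not pass the edgeR test in the fit of 9 libraries. CAF against NF passed without NF replicate 1 (adjusted p = 0.00888), without a filter (adjusted p = 0.00951), with DESeq2 (adjusted p = 0.0330) and with total counts as the scaling (adjusted p = 0.0480). S100a8, a gene of neutrophils, was at 3.66, 3.17 and 0.0577 CPM in labelled bcatKO CAF, 0 CPM in CAF and 0.950, 20.0 and 9.54 CPM in NF. It was lowest in the same library of the first group and in the same library of NF as Mmp8, and its part in the Mmp8 level was not tested. The other 7 neutrophil markers reached at most 0.896 CPM in any library, and S100a9, the binding partner of S100a8, was at 0 in all labelled bcatKO CAF and NF libraries. Mmp12, the metalloelastase of macrophages, had 12 counts in all labelled bcatKO CAF libraries, 18 in CAF and 95 in NF, of which 75 were in NF replicate 2. Mmp7, matrilysin, an enzyme of glandular epithelium, had 1 count among all 9 libraries.

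The gelatinases cut denatured collagen and basement membrane collagen, and both had their highest libraries in CAF. Mmp2, gelatinase A, which is activated at the cell surface by Mmp14 with the help of Timp2 (chromosome 8, 92827291 to 92853420), was at 116, 163 and 79.4 CPM in labelled bcatKO CAF, 418, 601 and 427 CPM in CAF and 87.5, 43.9 and 129 CPM in NF. Every CAF library was above the other 6. The log2 fold change was -2.01 ± 0.39 for labelled bcatKO CAF against CAF (4.03-fold lower, adjusted p = 0.00285) and 2.48 ± 0.40 for CAF against NF (5.57-fold higher, adjusted p = 0.00102). Mmp9, gelatinase B, was much lower in level, at 3.79, 2.34 and 0.115 CPM in labelled bcatKO CAF, 15.6, 21.8 and 9.22 CPM in CAF and 0.380, 2.35 and 9.17 CPM in NF. Its labelled bcatKO CAF libraries were all below CAF, with a log2 fold change of -2.90 ± 1.08 that just missed the threshold (adjusted p = 0.0531). It passed without a filter (adjusted p = 0.00481), with only the 6 samples compared (adjusted p = 0.00673), with DESeq2 (adjusted p = 0.0425) and limma-voom (adjusted p = 0.0260). NF replicate 3, at 9.17 CPM, lay next to the lowest CAF library. CAF against NF did not pass (log2 fold change 1.98 ± 1.03, adjusted p = 0.157). It passed without NF replicate 3 (3.45, adjusted p = 0.0289), without a filter (adjusted p = 0.0469) and with limma-voom (adjusted p = 0.0492).

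Membrane-type MMPs sit on the cell surface and act on the matrix next to the cell. Mmp14, the collagenase and Mmp2 activator among them, was the most abundant MMP per exon length in all 3 groups, at 487 ± 19.1 TPM in labelled bcatKO CAF, 559 ± 27.6 TPM in CAF and 376 ± 90.9 TPM in NF (mean ± SD, n = 3 each). In CPM it was 776, 682 and 737 in labelled bcatKO CAF, 824, 980 and 854 in CAF and 705, 390 and 698 in NF. The labelled bcatKO CAF libraries were all below the CAF libraries, but by little (log2 fold change -0.28 ± 0.23, adjusted p = 0.351). CAF against NF did not pass either (0.57 ± 0.23, adjusted p = 0.0755), and passed without NF replicate 1 (0.72, adjusted p = 0.0308). Mmp17, which is held by a lipid anchor, was at 1.22, 0.830 and 0.635 CPM in labelled bcatKO CAF, 11.8, 23.3 and 10.9 CPM in CAF and 0.760, 2.60 and 1.11 CPM in NF. It was 17.1-fold lower in labelled bcatKO CAF than in CAF (log2 fold change -4.10 ± 0.54, adjusted p = 0.000306) and 10.1-fold higher in CAF than in NF (3.33 ± 0.51, adjusted p = 0.000736), with no overlap in either comparison.

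Mmp16, a transmembrane form, was at 5.91, 6.95 and 7.51 CPM in labelled bcatKO CAF, 20.1, 11.2 and 15.7 CPM in CAF and 5.38, 7.89 and 5.84 CPM in NF. CAF was again the high group, by 1.29 ± 0.26 on the log2 scale over NF (adjusted p = 0.00364), and labelled bcatKO CAF was lower than CAF with a log2 fold change of -1.20 ± 0.26 (adjusted p = 0.00503). Mmp15, another transmembrane form, had 31 counts in labelled bcatKO CAF, 120 in CAF and 16 in NF. It passed for CAF against NF (log2 fold change 2.86 ± 0.88, adjusted p = 0.0280), but not without CAF replicate 2, which held 3.94 CPM against 1.12 and 1.15 CPM in the other CAF libraries (adjusted p = 0.127). Against CAF, labelled bcatKO CAF did not pass (-1.79 ± 0.82, adjusted p = 0.104). Mmp15 passed the filter on low counts only through CAF, so high CAF libraries were a condition of its being tested. Mmp24 had 0, 1 and 1 counts and Mmp25 had 1, 21 and 6 counts in labelled bcatKO CAF, CAF and NF, and neither was tested.

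Of the remaining MMPs, Mmp23 and Mmp28 moved in opposite directions and Mmp19 did not pass the test in the fit of 9 libraries. Mmp23, a small enzyme anchored by its N-terminal stretch and lacking the hemopexin domain of most MMPs (chromosome 4, 155650655 to 155653384, minus strand), was at 0.450, 0.519 and 0.462 CPM in labelled bcatKO CAF, 35.9, 56.7 and 40.3 CPM in CAF and 0.443, 0.128 and 0.123 CPM in NF. It was 91.4-fold lower in labelled bcatKO CAF than in CAF (log2 fold change -6.51 ± 0.38, adjusted p = 3.14e-06) and 195-fold higher in CAF than in NF (7.61 ± 0.42, adjusted p = 2.24e-06), from 25, 2582 and 12 counts in labelled bcatKO CAF, CAF and NF. It passed the filter on low counts only through CAF, so a difference from CAF was built into its being tested. Mmp28, epilysin (chromosome 11, 83440768 to 83463071, minus strand), had the reverse order, at 47.0, 41.0 and 68.9 CPM in labelled bcatKO CAF, 3.64, 7.66 and 4.15 CPM in CAF and 51.6, 26.1 and 18.6 CPM in NF. Its log2 fold change was 3.34 ± 0.44 against CAF (10.1-fold, adjusted p = 0.000331) and -2.64 ± 0.43 for CAF against NF (adjusted p = 0.00113), again with no overlap. Mmp19, a widely expressed MMP, was at 90.5, 95.8 and 119 CPM in labelled bcatKO CAF, 85.1, 105 and 103 CPM in CAF and 84.7, 49.6 and 75.5 CPM in NF, with a log2 fold change of 0.06 ± 0.21 against CAF (adjusted p = 0.838). Its exons overlap those of Tmem198b on the opposite strand over 22.3% of their length, and the strand setting of the counting is not given, so its count may hold reads of that gene.

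As a class, TIMPs had the highest summed level per exon length in every group, and Timp3 was the only one of the 3 tested that passed the edgeR test in the fit of 9 libraries. Timp3 binds to the matrix and inhibits ADAMTS enzymes and ADAM17 as well as MMPs (chromosome 10, 86300372 to 86349506, plus strand). It was at 546, 608 and 682 CPM in labelled bcatKO CAF, 1609, 1934 and 1441 CPM in CAF and 629, 556 and 206 CPM in NF. All CAF libraries were above the other 6, with a log2 fold change of -1.44 ± 0.36 for labelled bcatKO CAF against CAF (2.71-fold lower, adjusted p = 0.00993) and 1.84 ± 0.36 for CAF against NF (3.58-fold higher, adjusted p = 0.00310). Syn3, which overlaps 21.3% of its exon length on the opposite strand, had 68 counts over all libraries, against 154595 for Timp3.

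Timp2, which takes part in Mmp2 activation as well as inhibiting MMPs, was at 1164, 1300 and 1602 CPM in labelled bcatKO CAF, 905, 863 and 725 CPM in CAF and 1556, 690 and 646 CPM in NF. The labelled bcatKO CAF libraries were all above CAF, by 0.71 ± 0.33 on the log2 scale (adjusted p = 0.108), which did not pass in the fit of 9 libraries. It passed with only the 6 samples compared (0.72, adjusted p = 0.00549). NF replicate 1 was at the labelled bcatKO CAF level and the other NF libraries were below CAF, so labelled bcatKO CAF against NF gave 0.49 ± 0.33 (adjusted p = 0.601) with all libraries and 1.03 (adjusted p = 0.0115) without NF replicate 1. Timp1, a secreted inhibitor, was at 367, 402 and 353 CPM in labelled bcatKO CAF, 426, 475 and 233 CPM in CAF and 356, 399 and 484 CPM in NF. Its groups overlapped, with log2 fold changes of -0.02 ± 0.25 against CAF (adjusted p = 0.961) and -0.13 ± 0.25 for CAF against NF (adjusted p = 0.724). Timp4, an inhibitor of heart and fat tissue, had 5 counts in CAF and 0 in the other groups.

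**Figure D2:**
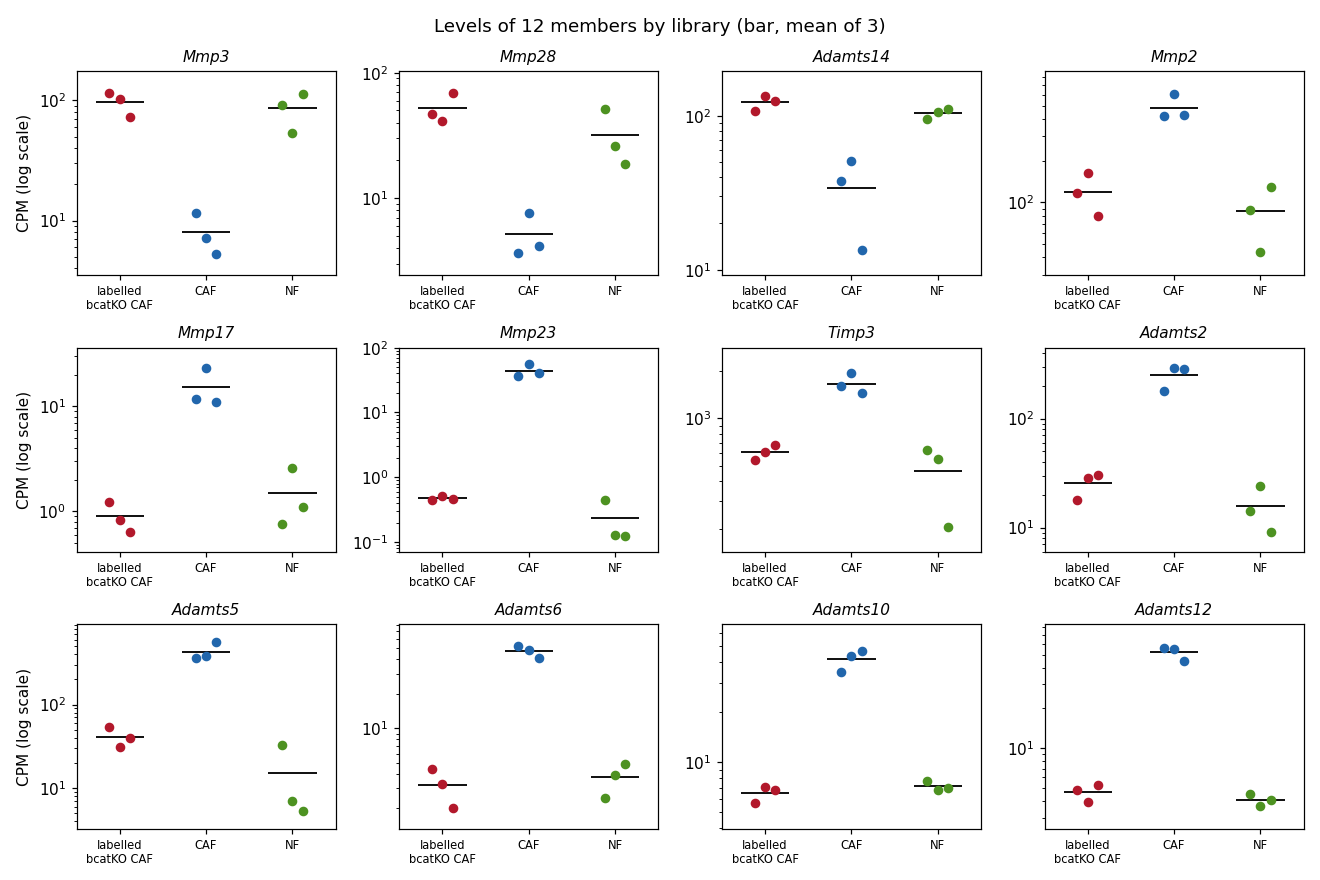
CPM (log axis) of 12 members in each library, with points for the 3 libraries of labelled bcatKO CAF, CAF and NF and a bar at their mean. For Mmp3, Mmp28 and Adamts14 the 3 CAF points lie under all others, and for the remaining 9 genes they lie above all others.

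The ADAMTS genes had the largest share of members lower in labelled bcatKO CAF than in CAF. Of 14 tested, 9 were lower and 1 was higher, with a median log2 fold change of -2.98. Of 15 tested MMPs 4 were lower and 2 higher, with a median of -0.28. As shares, 64.3% of ADAMTS genes and 26.7% of MMPs were lower (22.7% of all tested genes), and 7.14% and 13.3% were higher (21.5% of all tested genes), so the MMP share lower was near that of all genes. For CAF against NF, 8 ADAMTS genes were higher and 2 lower (median 3.10), and 5 MMPs were higher and 2 lower (median 0.48). As shares, that was 57.1% and 33.3% higher (20% of all tested genes) and 14.3% and 13.3% lower (19.9% of all tested genes). These medians were the same with members that had 0 counts in a group set to a bound from 3 counts in that group. That moved 1 ADAMTS gene for labelled bcatKO CAF against CAF, 2 for CAF against NF and 0 MMPs. The moved genes stayed beyond the median, so the check could not change it. Adamts3, Adamts15 and Adamts16 passed the filter on low counts only through CAF, as did Mmp15 and Mmp23 among the MMPs. High CAF libraries were a condition of testing these genes, and the shares of both classes include them. The difference between the 2 classes was not tested.

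ADAMTS proteoglycanases open up the aggrecan and versican network around cells. Adamts5, an aggrecanase (chromosome 16, 85856173 to 85901828, minus strand), was at 53.4, 30.8 and 39.4 CPM in labelled bcatKO CAF, 361, 377 and 555 CPM in CAF and 32.6, 7.08 and 5.29 CPM in NF. CAF was high in all 3 libraries. Labelled bcatKO CAF was 10.5-fold lower than CAF (-3.39 ± 0.63, adjusted p = 0.00219), and CAF was 28.9-fold higher than NF (4.85 ± 0.68, adjusted p = 0.000434). Without NF replicate 1 the log2 fold change for CAF against NF was 6.12 (adjusted p = 2.75e-06). NF replicate 1 was again near the labelled bcatKO CAF libraries, and without it Adamts5 was higher in labelled bcatKO CAF than in NF (log2 fold change 2.74, adjusted p = 0.00303). Adamts1, its neighbour on chromosome 16 and the most abundant ADAMTS gene per exon length in each group, was at 321, 226 and 208 CPM in labelled bcatKO CAF, 387, 383 and 670 CPM in CAF and 184, 119 and 401 CPM in NF. Labelled bcatKO CAF was below CAF in all libraries without passing (-0.93 ± 0.42, adjusted p = 0.102), and CAF overlapped NF (1.03 ± 0.42, adjusted p = 0.0806). CAF against NF passed without NF replicate 3 (1.67, adjusted p = 0.00416).

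Adamts9, a proteoglycanase with the longest exon sequence of the family here, was at 31.5, 30.6 and 24.1 CPM in labelled bcatKO CAF, 73.4, 65.0 and 75.6 CPM in CAF and 16.2, 33.5 and 61.3 CPM in NF. It was 2.48-fold lower in labelled bcatKO CAF than in CAF (-1.31 ± 0.38, adjusted p = 0.0206), a call that ended on dropping CAF replicate 1 or 3, or labelled bcatKO CAF replicate 2 or 3 (adjusted p = 0.0509 to 0.0682). Adamts4, the other well-known aggrecanase, overlapped between groups at 56.9, 39.7 and 18.7 CPM in labelled bcatKO CAF, 44.9, 59.5 and 59.6 CPM in CAF and 24.7, 85.2 and 98.4 CPM in NF (-0.51 ± 0.50 against CAF, adjusted p = 0.432). Adamts15, a proteoglycanase that lies beside Adamts8 on chromosome 9, was found almost entirely in CAF, with 1 count in labelled bcatKO CAF, 180 in CAF and 1 in NF. Labelled bcatKO CAF was lower than CAF by a ratio of 162 (95% exact interval of counting error 28.6 to 6416), with an adjusted p of 0.00011 in the fit of all genes. Because Adamts15 passed the filter on low counts only through CAF, a difference from CAF was built into its being tested. Adamts8 had 20, 9 and 47 counts in labelled bcatKO CAF, CAF and NF and did not pass in either comparison with CAF. Adamts20, a versican-cleaving enzyme, had 4, 72 and 6 counts and was not tested.

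Procollagen N-proteinases remove the amino-terminal propeptides of fibrillar collagens, and their 3 genes split. Adamts2 (chromosome 11, 50602084 to 50807573) was at 17.9, 28.3 and 30.5 CPM in labelled bcatKO CAF, 178, 290 and 286 CPM in CAF and 14.1, 24.1 and 9.17 CPM in NF. Adamts14 (chromosome 10, 61197112 to 61273438, minus strand) was at 107, 134 and 125 CPM in labelled bcatKO CAF, 37.7, 50.7 and 13.4 CPM in CAF and 95.1, 105 and 110 CPM in NF. Thus CAF held the highest Adamts2 levels and the lowest Adamts14 levels, with no overlap with the other groups for either gene. Adamts2 was 9.81-fold lower in labelled bcatKO CAF than in CAF (-3.29 ± 0.38, adjusted p = 0.000147) and 15.8-fold higher in CAF than in NF (3.99 ± 0.39, adjusted p = 5.55e-05). Adamts14 was 3.60-fold higher in labelled bcatKO CAF than in CAF (1.85 ± 0.38, adjusted p = 0.00397) and 3.05-fold lower in CAF than in NF (-1.61 ± 0.38, adjusted p = 0.00817). Adamts3 had 1 count in labelled bcatKO CAF, 45 in CAF and 0 in NF. It was lower in labelled bcatKO CAF than in CAF by a ratio of 40.4 (95% exact interval 6.89 to 1630, adjusted p = 0.00271) and at least 14.3-fold higher in CAF than in NF, with 3 counts in the group of 3 libraries taken as the floor (adjusted p = 0.00152). Like Adamts15, Adamts3 passed the filter on low counts only through CAF, so a difference from CAF was built in. Summed per exon length, the N-proteinases came to 105 ± 18.2 TPM in labelled bcatKO CAF, 126 ± 22.4 TPM in CAF and 82.5 ± 11.2 TPM in NF, so the summed level differed far less than either gene. Per exon length, Adamts14 at 93.5 ± 15.0 TPM made up most of the sum in labelled bcatKO CAF, and Adamts2 at 101 ± 23.8 TPM made up most of it in CAF.

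Of the 5 tested genes in the smaller ADAMTS branches, 4 (80%) were lower in labelled bcatKO CAF than in CAF, against 22.7% of all tested genes. One of these 4, Adamts16, could be tested only through CAF. Adamts12, which cleaves cartilage oligomeric matrix protein (chromosome 15, 11064790 to 11349231, plus strand), was at 4.82, 3.89 and 5.25 CPM in labelled bcatKO CAF, 56.6, 55.6 and 44.5 CPM in CAF and 4.50, 3.67 and 4.06 CPM in NF. Adamts10, which binds fibrillin microfibrils, was at 5.72, 7.11 and 6.81 CPM in labelled bcatKO CAF, 34.6, 43.4 and 46.6 CPM in CAF and 7.67, 6.78 and 7.01 CPM in NF. Adamts6, its closest relative, was at 4.37, 3.27 and 2.02 CPM in labelled bcatKO CAF, 52.7, 48.6 and 41.2 CPM in CAF and 2.47, 3.88 and 4.86 CPM in NF. In all 3 genes the labelled bcatKO CAF and NF libraries shared a range and CAF stood above it. Relative to CAF, the labelled bcatKO CAF level was 11.2-fold lower for Adamts12 (-3.49 ± 0.19, adjusted p = 2.41e-06), 6.33-fold lower for Adamts10 (-2.66 ± 0.18, adjusted p = 6.96e-06) and 14.8-fold lower for Adamts6 (-3.88 ± 0.33, adjusted p = 2.56e-05). CAF exceeded NF by 3.68 ± 0.19, 2.54 ± 0.18 and 3.66 ± 0.33 on the log2 scale for Adamts12, Adamts10 and Adamts6 (adjusted p = 1.82e-06, 8.76e-06 and 3.16e-05). Adamts16 had 52 counts in CAF and 0 in the other groups, which makes labelled bcatKO CAF at least 15.6-fold lower than CAF (adjusted p = 0.00267) and CAF at least 16.6-fold higher than NF (adjusted p = 0.00261), with the same floor. Adamts16 passed the filter on low counts only through CAF, so a difference from CAF was built into its being tested.

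Adamts7, a relative of Adamts12 that shares its cartilage substrate, had its lowest mean in CAF and varied within groups. It was at 95.7, 93.4 and 26.5 CPM in labelled bcatKO CAF, 23.4, 42.4 and 24.5 CPM in CAF and 40.5, 147 and 213 CPM in NF. It was lower in CAF than in NF (-2.15 ± 0.63, adjusted p = 0.0222) although the highest CAF library lay above the lowest NF library. Dropping CAF replicate 1 or 3, or NF replicate 2 or 3, ended the call (adjusted p = 0.0503 to 0.0813). Labelled bcatKO CAF against CAF did not pass (1.26 ± 0.61, adjusted p = 0.124). Adamts17, linked to microfibrils like Adamts10, had 0, 16 and 4 counts in labelled bcatKO CAF, CAF and NF. Adamts18 had 2, 1 and 2 counts and Adamts19 had 0, 2 and 0 counts in the same order of groups.

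**Figure D3:**
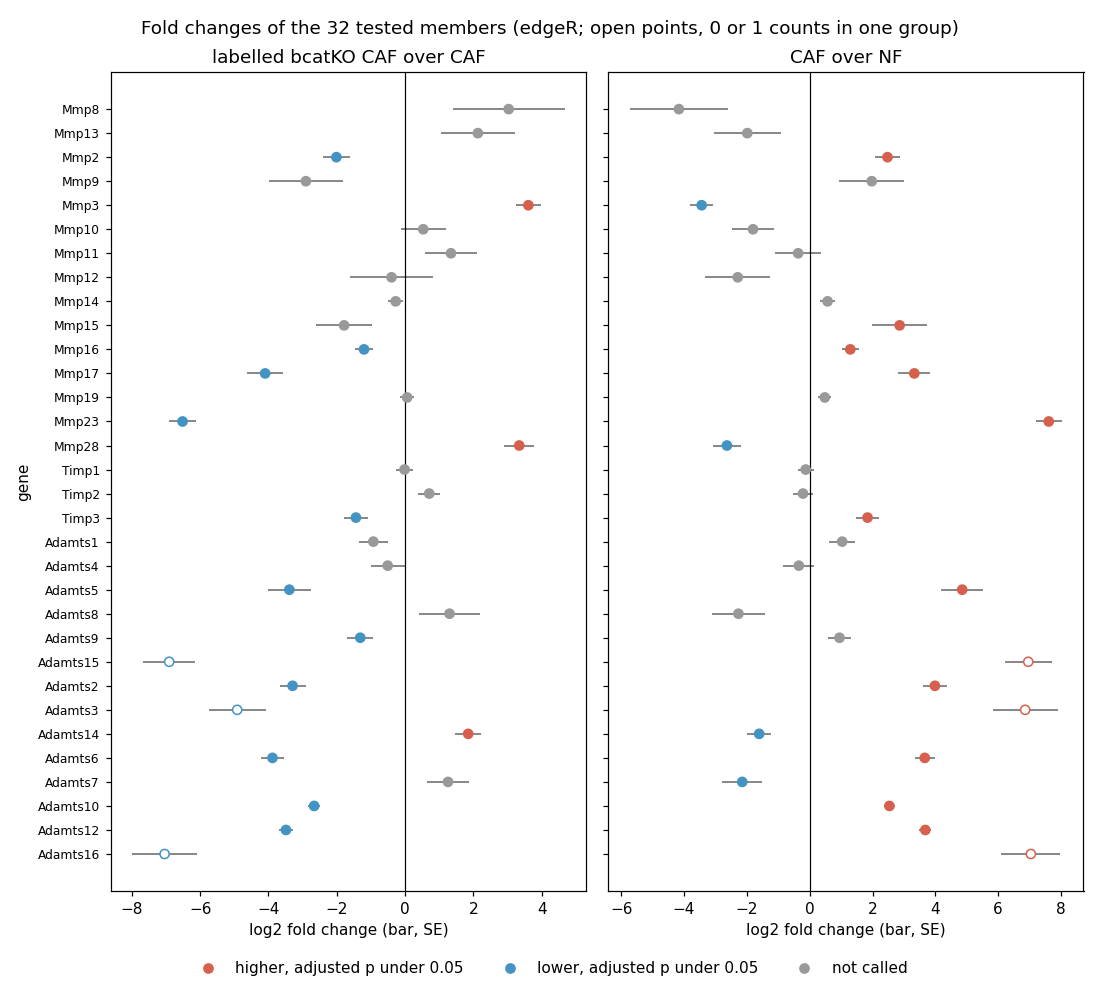
Log2 fold change (x axis) with its SE for the 32 tested members (y axis), for labelled bcatKO CAF over CAF and for CAF over NF, coloured by the edgeR call at an adjusted p under 0.05; open points had 0 or 1 counts in a group, so their fitted value is no bound. The left panel shows 3 members higher and 14 lower, and the right panel 14 higher and 4 lower; the panels share the CAF libraries.

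Promoters of 4 further genes are shown, picked from the members that passed the test in both comparisons with CAF. For Mmp28 and Adamts14 CAF was the low group, and for Mmp23 and Adamts12 it was the high group. Timp3, Adamts2 and Adamts3 also passed in both and had a sequence, which is not printed. Of the listed starts of Mmp23, 1 is printed. The 200 bases before each start (RefSeq, GRCm38.p6) are given 5′ to 3′ on the gene's strand, at chr11:83463041-83463240 (minus) for Mmp28, chr10:61273420-61273619 (minus) for Adamts14, chr4:155653385-155653584 (minus) for Mmp23 and chr15:11064573-11064772 (plus) for Adamts12, and capitals mark the same letters as above together with the TCF/LEF core, spelled CTTTGNT:
Mmp28: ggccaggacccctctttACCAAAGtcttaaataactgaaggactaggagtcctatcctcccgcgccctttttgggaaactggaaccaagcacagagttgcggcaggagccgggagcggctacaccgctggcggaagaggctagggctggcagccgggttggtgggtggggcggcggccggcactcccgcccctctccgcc
Adamts14: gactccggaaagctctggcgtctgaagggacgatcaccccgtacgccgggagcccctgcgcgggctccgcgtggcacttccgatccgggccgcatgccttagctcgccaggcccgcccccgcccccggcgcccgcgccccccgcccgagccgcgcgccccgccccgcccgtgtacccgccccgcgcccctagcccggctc
Mmp23: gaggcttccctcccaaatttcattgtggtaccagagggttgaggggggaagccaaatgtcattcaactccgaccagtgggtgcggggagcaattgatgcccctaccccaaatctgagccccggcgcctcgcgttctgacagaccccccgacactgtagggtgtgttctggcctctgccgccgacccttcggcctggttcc
Adamts12: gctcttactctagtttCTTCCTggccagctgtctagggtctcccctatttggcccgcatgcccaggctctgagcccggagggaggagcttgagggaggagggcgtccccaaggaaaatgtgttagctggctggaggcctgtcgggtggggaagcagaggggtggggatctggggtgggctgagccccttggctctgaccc
Only Mmp28 held the TCF/LEF letters in this window, at -183 on the opposite strand, a pattern found in 16% of all promoters within 250 bases of the start on either strand. Of the 3 members called higher in labelled bcatKO CAF than in CAF, all of which had a sequence, 1 held an AP-1 match (Mmp3) and 1 a TCF/LEF match. Of the 14 called lower, 6 had a sequence, and 0 of these held an AP-1 or a TCF/LEF match. The absence of a match says that these letters were not in the window, and with so few promoters no difference between the calls was tested.

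Levels per exon length were also summed over each class. MMP genes summed to 1336, 1342 and 1498 TPM in labelled bcatKO CAF, 1332, 1614 and 1456 TPM in CAF and 1305, 680 and 948 TPM in NF. Labelled bcatKO CAF and CAF overlapped, and NF was below both in every library, with NF replicate 1 close to the lowest of the others. ADAMTS genes summed to 445, 413 and 334 TPM in labelled bcatKO CAF, 650, 677 and 955 TPM in CAF and 270, 381 and 557 TPM in NF, so CAF was above the other groups in every library. TIMP genes summed to 2910, 3517 and 3649 TPM in labelled bcatKO CAF, 3527, 3565 and 2407 TPM in CAF and 3297, 2901 and 2586 TPM in NF. The ratio of summed MMP to summed TIMP was 0.417 ± 0.039 in labelled bcatKO CAF, 0.479 ± 0.116 in CAF and 0.332 ± 0.086 in NF (mean ± SD, n = 3), and these ranges overlapped. The ratio of transcript sums has no test here and says nothing of protein or enzyme activity.

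The genes that made up those sums differed between groups. Mmp2 took 10.3 ± 4.2% of the MMP sum in labelled bcatKO CAF, 36.4 ± 3.1% in CAF and 9.87 ± 3.7% in NF. Mmp3 and Mmp11 together ranked next to Mmp14 in labelled bcatKO CAF, with 25.1 ± 6.7% for Mmp11 and 15.5 ± 3.9% for Mmp3, and in CAF their shares were 8.94 ± 3.7% and 1.17 ± 0.60%. In the NF sum Mmp3 took 18.8 ± 4.3%, and Mmp11 ranged between 3.86% and 30.8%, the highest share being that of NF replicate 1. Timp3 took 8.89 ± 0.43% of the TIMP sum in labelled bcatKO CAF, 24.6 ± 3.3% in CAF and 7.36 ± 3.4% in NF. Timp1 and Timp2 led that sum in labelled bcatKO CAF at 1672 ± 159 and 1387 ± 284 TPM, which do not differ beyond their spread. In the ADAMTS sum, Adamts14 ranked next to Adamts1 in labelled bcatKO CAF (24.1 ± 6.3%), Adamts5 and Adamts2 did so in CAF (19.7 ± 1.1% and 13.4 ± 2.7%), and Adamts14 again did so in NF (20.3 ± 6.3%).

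**Figure D4:**
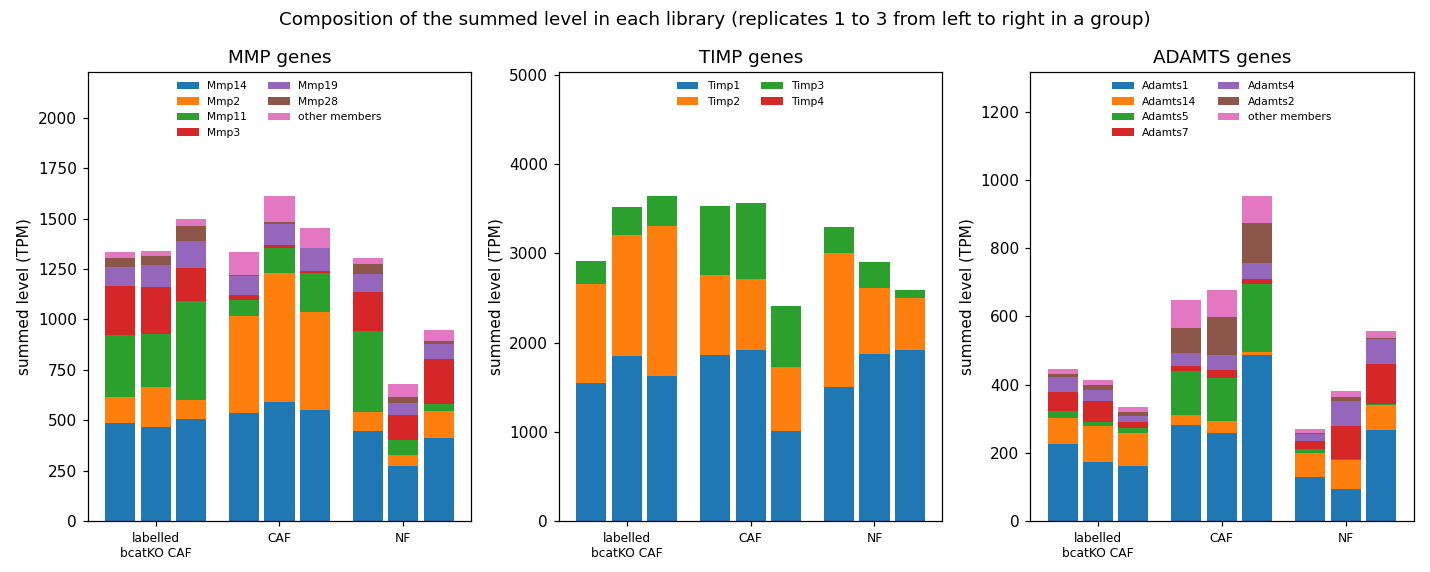
Summed level per exon length (TPM) of the MMP, TIMP and ADAMTS genes in each library, stacked by gene, with labelled bcatKO CAF, CAF and NF from left to right. The Mmp2 and Adamts5 segments are widest in CAF and the Mmp3 segment is widest in labelled bcatKO CAF and NF; the TIMP bars overlap between all groups, and the 3 NF bars are the lowest of the MMP panel.

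Genes that act with these enzymes were taken from lists that were drawn up with earlier results of these data known. Their counts stand beside those of all tested genes, of which 21.5% were higher and 22.7% lower in labelled bcatKO CAF than in CAF, and 20% were higher and 19.9% lower in CAF than in NF. Of 17 tested MMP activators and inhibitors other than TIMPs, 2 were higher (11.8%) and 7 lower (41.2%) in labelled bcatKO CAF than in CAF, and 7 were higher (41.2%) and 3 lower (17.6%) in CAF than in NF. Pcsk5, a proprotein convertase of the furin family, had 2 counts in labelled bcatKO CAF, 2813 in CAF and 3 in NF (adjusted p = 2.44e-06 for labelled bcatKO CAF against CAF). With so few counts elsewhere, Pcsk5 could pass the filter on low counts only through CAF. A difference from CAF was thus built into its being tested. The shares of these lists include genes of this kind. Of 10 tested ADAM proteases, the membrane-bound relatives of the ADAMTS enzymes, 3 were higher (30%) and 4 lower (40%) in labelled bcatKO CAF than in CAF. Adam12 averaged 0.278 CPM in labelled bcatKO CAF, 165 CPM in CAF and 2.02 CPM in NF, and Adam17, a sheddase that Timp3 inhibits, averaged 188, 86.8 and 215 CPM in the same order.

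Among ADAMTS-like proteins and procollagen C-terminal processing genes, 2 of 10 tested were higher (20%) and 5 lower (50%) in labelled bcatKO CAF than in CAF. Of all tested genes, 21.5% were higher and 22.7% lower. Bmp1, the main procollagen C-proteinase, averaged 122 CPM in labelled bcatKO CAF, 428 CPM in CAF and 126 CPM in NF (-1.81 ± 0.18 for labelled bcatKO CAF against CAF, adjusted p = 6.39e-05). Adamtsl4, an ADAMTS-like protein without a protease domain, averaged 67.5, 5.67 and 43.4 CPM in that order (3.57 ± 0.35, adjusted p = 5.78e-05). Of 5 tested ADAMTS substrates and their binding partners, 4 (80%) were lower and 0 higher in labelled bcatKO CAF than in CAF. Vcan, the versican core protein that Adamts1, Adamts4, Adamts5 and Adamts9 cut, averaged 204 CPM in labelled bcatKO CAF, 878 CPM in CAF and 209 CPM in NF (-2.11 ± 0.28, adjusted p = 0.000351), and Fbln2, a fibulin, averaged 34.0, 5501 and 37.5 CPM. Of 14 tested cysteine and other matrix proteases and their inhibitors, 4 were higher (28.6%) and 5 lower (35.7%), not far from the shares of all genes. Ctsb, the lysosomal protease cathepsin B, averaged 2664 CPM in labelled bcatKO CAF, 784 CPM in CAF and 2329 CPM in NF (1.77 ± 0.23, adjusted p = 0.000314). By contrast, Ctsk, the collagen-cutting cathepsin K, averaged 45.4, 213 and 55.1 CPM (-2.23 ± 0.38, adjusted p = 0.00128).

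AP-1 and ETS proteins bind motifs of the kinds shown above for the chromosome 9 genes. Of 12 tested genes in a list of these factors, 5 were higher (41.7%) and 2 lower (16.7%) in labelled bcatKO CAF than in CAF. Of all tested genes, 21.5% were higher and 22.7% lower. The list also held Runx2, which belongs to neither family and was not called. Fosl1, an AP-1 subunit, averaged 167 CPM in labelled bcatKO CAF, 28.6 CPM in CAF and 183 CPM in NF (2.55 ± 0.32 for labelled bcatKO CAF against CAF, adjusted p = 0.000249). Fos, another subunit, ran the other way at 1.51, 55.6 and 4.19 CPM (-5.20 ± 0.66, adjusted p = 0.000246). Etv1, an ETS factor, averaged 114, 6.44 and 105 CPM (4.14 ± 0.29, adjusted p = 8.27e-06).

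**Figure D5:**
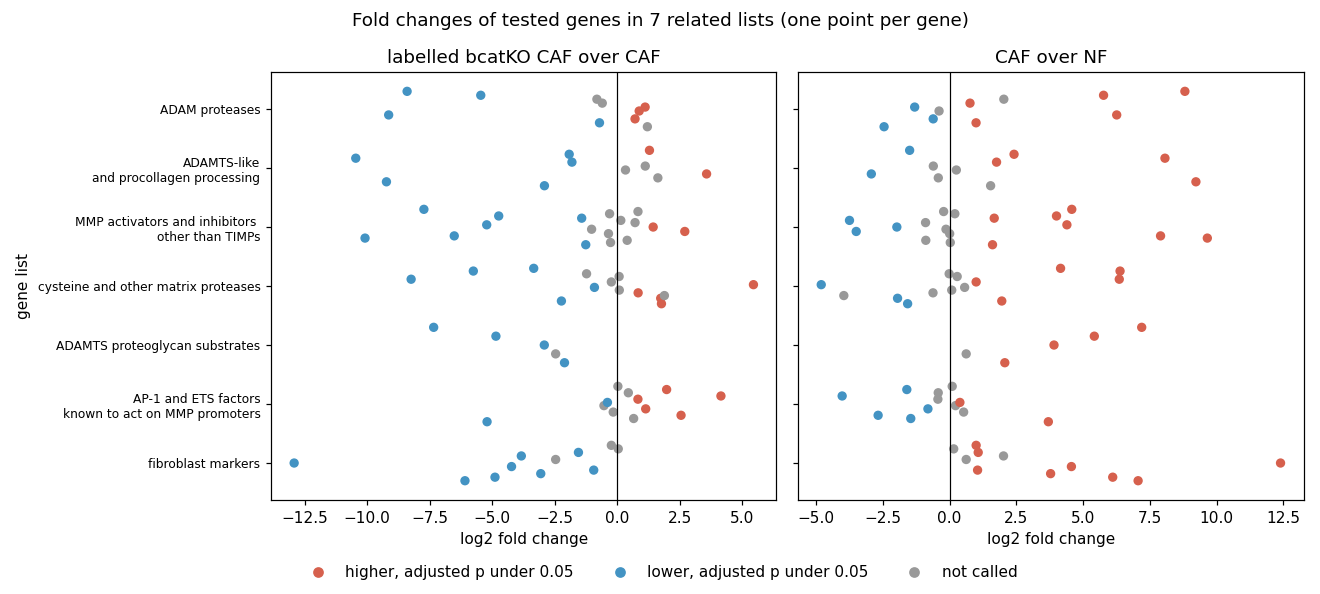
Log2 fold change (x axis) of each tested gene in 7 lists of related genes and fibroblast markers (y axis), for labelled bcatKO CAF over CAF and CAF over NF, coloured by the edgeR call. In the left panel the ADAMTS substrates have 4 of 5 genes lower and 0 higher, and the AP-1 and ETS factors 5 of 12 higher and 2 lower. Of all tested genes, 21.5% were higher and 22.7% lower in that comparison.

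Markers of cells that could stand beside fibroblasts in a culture differed between groups too. Summed over 10 macrophage markers the libraries held 23.4 to 33.6 CPM in labelled bcatKO CAF, 7.02 to 11.3 CPM in CAF and 36.4 to 55.9 CPM in NF, and Cd68, the most abundant, averaged 20.0, 1.34 and 28.7 CPM. Csf1r, the receptor of macrophage colony-stimulating factor, ran the other way (0.408, 3.39 and 0.982 CPM; adjusted p = 0.0295 for labelled bcatKO CAF against CAF), and Ptprc, Adgre1, Itgam, Tyrobp, Fcer1g and Aif1 reached at most 1.24 CPM in any library. The 8 melanocyte and melanoma markers summed to 595 to 902 CPM in labelled bcatKO CAF, 78.9 to 188 CPM in CAF and 83.1 to 1011 CPM in NF, nearly all of it Gpnmb, with Tyr at 0 in labelled bcatKO CAF and CAF. Gpnmb was at 995 CPM in NF replicate 1 and at 166 and 70.4 CPM in the other NF libraries. The 9 markers of pericytes and smooth muscle summed to 548 to 1136 CPM in labelled bcatKO CAF, 416 to 698 CPM in CAF and 161 to 812 CPM in NF, with Cspg4 at 834, 92.2 and 400 CPM on average. Cspg4 was the 1 marker of 8 tested in that list (12.5%) that was higher in labelled bcatKO CAF than in CAF, against 21.5% of all tested genes. In the same list 6 (75%) were lower, against 22.7% of all tested genes. Among them were Cnn1 (0.208, 201 and 0.227 CPM) and Lmod1 (0.230, 126 and 0.161 CPM), both genes of the smooth muscle contractile apparatus. The 8 epithelial markers summed to at most 0.519 CPM in labelled bcatKO CAF, 30.6 to 39.0 CPM in CAF and at most 3.62 CPM in NF. Krt19 was the most abundant, at 31.1, 33.1 and 14.4 CPM in CAF. Krt5 and Krt14 reached 7.26 and 5.59 CPM in CAF replicate 3, and Epcam and Cdh1 reached at most 0.859 CPM in any library. In the same order of groups the 7 skeletal muscle markers summed to at most 0.934 CPM, 93.1 to 254 CPM and at most 1.32 CPM. Nearly all of the CAF sum was Acta1 (247, 173 and 91.6 CPM). Des reached 6.01 CPM and Myh3 3.16 CPM in CAF, and Myod1, Myog and Ckm reached at most 0.207 CPM in any library. The 8 endothelial markers summed to 2.23 to 2.70 CPM in labelled bcatKO CAF, 7.93 to 16.5 CPM in CAF and 2.40 to 4.50 CPM in NF. Of 4 tested, 3 were lower and 1 higher in labelled bcatKO CAF than in CAF (75% and 25%, against 22.7% and 21.5% of all tested genes). The 8 neutrophil markers summed to 0.173 to 3.79 CPM in labelled bcatKO CAF, at most 0.191 CPM in CAF and 1.01 to 20.9 CPM in NF. The 8 markers of osteoblasts and chondrocytes summed to 173 to 180 CPM in labelled bcatKO CAF, 44.5 to 62.5 CPM in CAF and 189 to 257 CPM in NF. Nearly all of that sum was Sox9 (175, 51.3 and 226 CPM on average), and the other 7 reached at most 0.525 CPM in any library. These values moved with the groups in the same libraries as the members above, and their part in the results was not tested.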

How the data were processed

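Total RNA of cultured mouse fibroblasts was sequenced on an Illumina instrument after extraction with the PureLink kit, per the labels' protocols. The authors deposited raw read counts per Ensembl gene, and the table of the series and the files of the single samples held the same values (0 cells differed). The submitters' processing notes name mm10, TopHat, bcl2fastq and edgeR without versions. Counter, strand setting and annotation were not given in the sources used here, so reads of overlapping genes on opposite strands cannot be told apart.

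Source and genotype labels gave the groups, and replicate numbers follow the order of the records. Symbols matched 51633 of 51912 identifiers through GENCODE M21 (GRCm38), which also gave coordinates and exon lengths. Genes were filtered with filterByExpr in edgeR 4.0.16 (R 4.3.3), scaled by TMM and fitted together over the 9 libraries by group (quasi-likelihood F test), with Benjamini-Hochberg adjustment over 14314 genes and calls under 0.05. SEs came from the F statistic. CPM used TMM library sizes, and TPM used union exon lengths. Where a group had 0 counts, 3 counts in that group served as the floor of a fold, and intervals and floors cover counting error only. Totals ranged between 15433810 and 21893574 counts per library.

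The members and lists were chosen with earlier results of these data known. All members could be named. Related lists contributed up to 4 called genes each, by largest fold change among those averaging 5 CPM or more, and lists of other cells their most abundant gene; other list members named for their level or for 0 counts were picked with their values in view. The alternatives tried were RLE scaling, total counts as the scaling, no filter, a filter of 1 CPM in 3 samples, limma-voom (3.58.1), DESeq2 1.42.0, only the 6 samples compared, leaving out each library and, for TPM, the longest transcript as the length. The scripts were tested on simulated counts.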

Additional observations from a re-analysis of the deposited data

How the results depend on the processing

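In labelled bcatKO CAF against CAF, the 3 members called higher became 5 without a filter and 6 with only the 6 samples compared. The 4 members lower in CAF than in NF became 7 without a filter, 7 with total counts as the scaling, and 3 to 8 on leaving out 1 library. In labelled bcatKO CAF against NF, the 0 genes called higher became 1 without a filter, 6 with DESeq2 and 0 to 1620 on leaving out 1 library, and the 0 called lower became 0 to 1039. For members, leaving out 1 library gave 0 to 6 higher and 0 to 2 lower. In that comparison all calls on leaving out a library came without NF replicate 1, when Mmp11, Mmp19, Mmp23, Mmp28, Timp2 and Adamts5 were higher and Mmp12 and Adamts4 lower in labelled bcatKO CAF. Mmp11 turned for CAF against NF, with values of -0.83 to 1.31 on leaving out 1 library (1.31 without NF replicate 1, adjusted p = 0.0245) and 0.29 with limma-voom (adjusted p = 0.786). Members that were called only under another setting included, for labelled bcatKO CAF against CAF, Mmp9, Mmp13, Adamts1 and Adamts7 without a filter, and Mmp9, Mmp11, Mmp15, Timp2, Adamts1 and Adamts7 with only the 6 samples compared. For CAF against NF they included Mmp8, Mmp9, Mmp10, Adamts1, Adamts8 and Adamts9 without a filter, Mmp8, Mmp10, Mmp14, Adamts1 and Adamts9 with DESeq2, and Mmp9, Adamts1 and Adamts9 without NF replicate 3. Shares of all tested genes are not given for these settings, so the changed member counts are not read against all genes. The cause of these changes was not tested.

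Ctnnb1 in labelled bcatKO CAF against CAF was at -0.41 without a filter (adjusted p = 0.160), -0.29 with total counts (adjusted p = 0.152) and -0.45 to -0.41 on leaving out 1 library (adjusted p = 0.0665 to 0.115), and so was no longer called. In CAF against NF it was called with DESeq2 (0.28, adjusted p = 0.0284). With the longest transcript as the length, summed TIMP was 2841 TPM in labelled bcatKO CAF and 2469 TPM in NF, and the MMP to TIMP ratio was 0.525 in labelled bcatKO CAF, 0.564 in CAF and 0.429 in NF, in the same order as before.

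Total counts as the scaling moved the median log2 fold change of all genes to 0.12 for labelled bcatKO CAF against CAF and to -0.20 for CAF against NF, and the share of called genes that were higher to 58.2% (48.6% with TMM) and 39.7% (50.2% with TMM). No paired analysis was possible because the replicate numbers only follow the order of the records. Members with few counts (Mmp7, Mmp8, Mmp12, Mmp24, Mmp25, Timp4, Adamts3, Adamts8 and Adamts15 to Adamts20) are limited by depth, and group and culture, cell origin or passage cannot be told apart in this design.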
